A study of Mus musculus with 4 samples.

Results

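The 10 glycolysis enzyme genes Hk1, Hk2, Gpi1, Pfkl, Aldoa, Pgk1, Pgam1, Eno1, Pkm and Ldha were followed in RNA-Seq of splenic follicular B (FOB) cells. They were taken by gene symbol from the deposited count table, in which they are 10 of 55401 genes, and from the deposited table of splicing events. Their symbols matched 11 rows, because a second gene with the symbol Aldoa (ENSMUSG00000114515) held at most 2 counts in a library and was not tested. FOB cells, the main recirculating B cell subset of the spleen, had been sorted as B220+CD93-CD23highCD21low cells from C57BL/6 mice aged 7 weeks. The 2 WT libraries came from Hnrnpf fl/fl mice without Cre and the 2 knockout libraries, labelled HFKO, from Hnrnpf bKO mice, which were Hnrnpf fl/fl and carried 1 Cre knock-in allele, so that mice of both groups carried floxed Hnrnpf alleles. The Cre recombinase is expressed from the locus of a B cell gene and removes exon 4 of Hnrnpf, which encodes an RNA-binding protein that regulates alternative splicing. HFKO cells therefore differed from WT cells both in Hnrnpf and in the Cre allele and its host locus, and the effects of these differences cannot be told apart here. Whether a library came from 1 mouse or from pooled mice is not given in the sources used here, and p-values measure only the spread between these libraries, which may be technical.

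Glycolysis is the cytosolic pathway that splits glucose into pyruvate, with a gain of ATP and NADH. Hexokinase traps glucose as glucose 6-phosphate, phosphofructokinase commits it to the pathway, aldolase splits the sugar, the later enzymes harvest ATP, and lactate dehydrogenase turns pyruvate into lactate and regenerates NAD+. Resting B cells run the pathway at a low rate and raise glucose uptake after antigen receptor, CD40 or Toll-like receptor stimulation. The mRNA measured here is of cells sorted from the spleen, and neither enzyme activity nor metabolites were measured.

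The libraries held 15698567 to 18908963 counts, of which the 10 genes took 0.182% to 0.188%. Hnrnpf itself was counted 5780 and 6634 times in WT cells and 1167 and 1194 times in HFKO cells, a log2 fold change (HFKO over WT) of -2.32 ± 0.06 (SE). The B cell marker Cd79a, a signalling subunit of the antigen receptor, was high in all 4 libraries, at 2187 and 2165 CPM (counts scaled to library size) in WT and 2330.3 and 2328 CPM in HFKO cells. Among other B cell markers Ms4a1 and Pax5 were lower and Fcer2a was higher in HFKO cells at an edgeR adjusted p of at most 0.05. Markers of other cells were at low levels, except those of plasma cells. The 5 plasma cell markers summed to 328 and 353 CPM in WT and 326 and 321 CPM in HFKO cells. Among the others, 2 markers of neutrophils, S100a8 and S100a9, were higher in HFKO cells. The sum over 7 neutrophil and monocyte markers was 11.4 and 17.6 CPM in WT against 21.7 and 33.3 CPM in HFKO cells, with 2 of 5 tested passing, and Mpo and Elane at 0 to 2 counts in WT and 0 to 10 counts in HFKO libraries. Of the 3 that did not pass, Itgam had a log2 fold change of 0.71 ± 0.42, with both HFKO libraries above both WT libraries. Lyz2 (0.56 ± 0.29) overlapped between the groups, and the monocyte marker Csf1r had a log2 fold change of -0.21 ± 0.36. The 6 T cell markers summed to 25.0 and 38.5 CPM in WT and 19.8 and 29.9 CPM in HFKO cells, with none passing the test. Of 5 genes of marginal zone B cells, a neighbouring splenic subset, 3 (Cr2, S1pr3 and Dtx1) were lower and 1 (Cd1d1) was higher in HFKO cells. Over all genes tested 6.97% passed. The sum of these 5 was 1504 and 1314 CPM in WT against 1088 and 1088 CPM in HFKO cells. Cr2 (CD21) and Fcer2a (CD23) encode proteins that the cells were sorted on, so neither is independent of the sort. Of 5 genes of B cell activation 1 (Cd69) was higher and 0 were lower, and none of the red cell, platelet, NK cell or plasma cell markers passed. Whether these other cells or B cell subsets had a part in the values of the glycolysis enzymes was not tested. In bulk RNA, a different share of a cell type and a different RNA content per cell cannot be told apart.

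None of the 10 glycolysis enzymes differed between WT and HFKO FOB cells by the test used. Across all 14123 genes left by a filter on low counts, 985 genes (6.97%) passed edgeR's quasi-likelihood test at a Benjamini-Hochberg adjusted p of at most 0.05, 586 (4.15%) higher and 399 (2.83%) lower in HFKO cells. All 10 enzymes were left by that filter, and 0 of 10 passed in either direction. At a fold change of at least 2 in addition, 127 genes (0.899%) passed in all and 0 of the 10 enzymes. At an unadjusted p under 0.05, 1 of the 10 (Pfkl) was found, beside 20.3% of all genes tested. DESeq2 found 0 of 10 at an adjusted p of at most 0.05, where 621 of 12164 genes (5.11%) passed. The 3 limma settings on FPKM also found 0 of 10, but they passed few genes in all, 45 (0.332%), 41 (0.302%) and 1 (0.00423%). In CPM, the WT and HFKO libraries did not overlap for 4 of the 10 (Hk1, Pfkl, Aldoa and Eno1), beside 50.1% of all genes tested. The log2 fold changes ran from -0.09 (Aldoa) to 0.17 (Pfkl), 6 positive and 4 negative, with a median of 0.04 beside -0.002 over all genes tested. Their median absolute size was 0.07 beside 0.14 over all genes tested, many of which had fewer counts than the 274 to 7634 counts per library that these 10 averaged. The 95% intervals of the fold changes reached from 0.798 to 1.23 over all 10 genes, so that each interval left out a 2-fold difference in either direction. The summed FPKM (the authors' counts scaled to exonic length and library total) of the 10 genes was 407 and 417 in WT and 419 and 407 in HFKO libraries, ranges that overlapped.

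**Figure D1:**
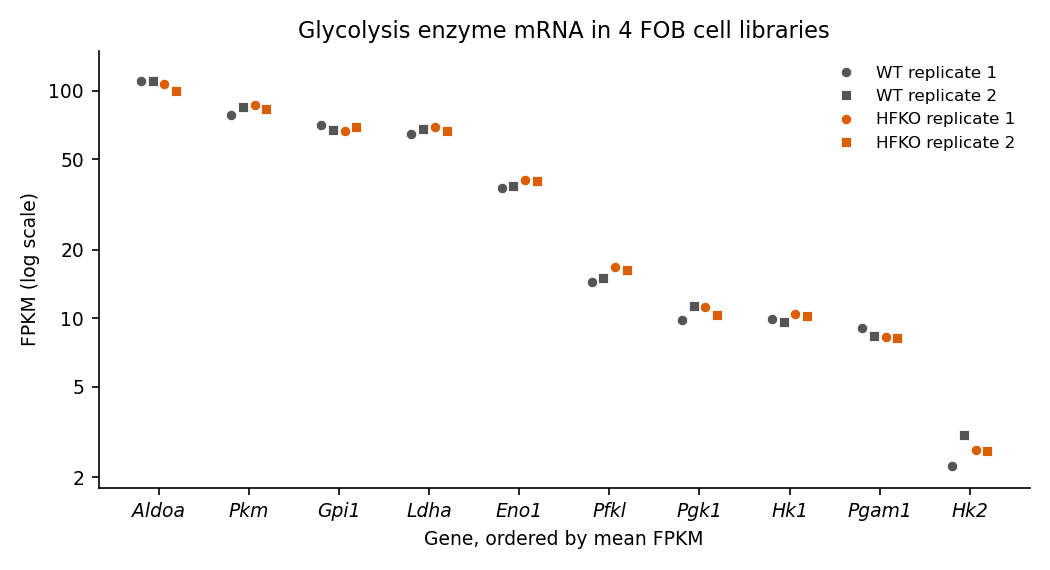
FPKM on a log axis of the 10 glycolysis enzymes (x axis, ordered by mean FPKM), with 1 point per library, grey for WT and orange for HFKO, circles for replicate 1 and squares for replicate 2. The points of a gene lie close together, while the genes span from 2.64 FPKM (Hk2) to 107 FPKM (Aldoa) on average.

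The hexokinases catalyze the entry of glucose. Hk1 (chr10:62268855-62379908 of GRCm38, minus strand), the housekeeping form that binds to mitochondria, had 1384 and 1554 counts in WT and 1396 and 1573 counts in HFKO libraries, or 9.91 and 9.63 FPKM against 10.42 and 10.2 FPKM. Both HFKO libraries lay just above both WT libraries, at 88.4 ± 0.880 CPM (SD, n = 2) against 83.2 ± 2.08 CPM, a log2 fold change of 0.09 ± 0.06 (SE) with an edgeR adjusted p of 0.471. Hk2 (chr6:82725025-82774454, minus strand) encodes the inducible hexokinase of activated and proliferating cells. It was the lowest of the 10, with 220 and 346 counts in WT and 247 and 282 counts in HFKO libraries, or 2.25 and 3.07 FPKM against 2.64 and 2.61 FPKM. The 2 WT libraries of Hk2 lay on either side of the 2 HFKO libraries, and its log2 fold change of -0.01 ± 0.14 (edgeR adjusted p = 0.976) had the widest interval of the set, a fold of 0.798 to 1.23.

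Gpi1 (chr7:34201330-34230336, minus strand), which turns glucose 6-phosphate into fructose 6-phosphate, showed 7445 and 8210 counts in WT and 6767 and 8113 counts in HFKO libraries, or 70.53 and 67.29 FPKM against 66.81 and 69.57 FPKM. Its groups overlapped, with a log2 fold change of -0.003 ± 0.05 and a fold interval of 0.924 to 1.08. Of the exonic bases of Gpi1, 11.5% are shared in position with another annotated gene (Gm26762).

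Pfkl (chr10:77986947-78010083, minus strand) encodes the liver-type subunit of phosphofructokinase, the main control point of the pathway. Of the 10 genes, it showed the largest difference. Its counts were 1579 and 1899 in WT and 1754 and 1961 in HFKO libraries, or 14.46 and 15.05 FPKM against 16.74 and 16.25 FPKM. Both HFKO libraries exceeded both WT libraries, at 111 ± 1.71 CPM against 98.2 ± 2.31 CPM. The log2 fold change was 0.17 ± 0.06, a fold of 1.13 with a 95% interval of 1.03 to 1.23. The unadjusted p of 0.0109 gave an edgeR adjusted p of 0.101, and Pfkl was therefore not called.

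Aldoa (chr7:126795234-126800751, minus strand), the aldolase that cleaves fructose 1,6-bisphosphate, was the most highly expressed of the 10 per length. It had 5261 and 6087 counts in WT and 4875 and 5235 counts in HFKO libraries, or 110.47 and 110.58 FPKM against 106.68 and 99.5 FPKM. Both HFKO libraries lay below both WT libraries, with a log2 fold change of -0.09 ± 0.05, a fold interval of 0.870 to 1.01 and an edgeR adjusted p of 0.360.

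Pgk1 (chrX:106187100-106203699, plus strand), which makes the first ATP of the pathway, had 362 and 480 counts in WT and 397 and 421 counts in HFKO libraries, or 9.86 and 11.31 FPKM against 11.27 and 10.38 FPKM. The HFKO values of Pgk1 fell between the WT values in FPKM. In CPM, HFKO replicate 1 (25.3) lay just above both WT libraries (22.1 and 25.2), and the groups overlapped. The log2 fold change was 0.04 ± 0.10 (edgeR adjusted p = 0.879). Pgam1 (chr19:41911923-41918660, plus strand), the phosphoglycerate mutase that moves the phosphate for the next step, had 295 and 313 counts in WT and 259 and 293 counts in HFKO libraries, or 9.1 and 8.35 FPKM against 8.32 and 8.18 FPKM. Its groups overlapped in CPM but not in FPKM, and its log2 fold change was -0.07 ± 0.12 with an edgeR adjusted p of 0.800.

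Eno1 (chr4:150236721-150248879, plus strand) encodes the ubiquitous enolase, which makes phosphoenolpyruvate. It had 3291 and 3870 counts in WT and 3409 and 3907 counts in HFKO libraries, or 37.4 and 38.05 FPKM against 40.37 and 40.19 FPKM. Its groups did not overlap, with 202 ± 1.55 CPM in WT and 218 ± 0.448 CPM in HFKO cells. The log2 fold change of 0.11 ± 0.05 had a fold interval of 0.998 to 1.16 and an edgeR adjusted p of 0.258.

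Pkm (chr9:59656368-59679375, plus strand) encodes the muscle-type pyruvate kinases, which make pyruvate and ATP. It had 6427 and 8039 counts in WT and 6784 and 7555 counts in HFKO libraries, or 78.55 and 85.01 FPKM against 86.41 and 83.58 FPKM. The groups overlapped, with 408 ± 20.9 CPM in WT and 427 ± 7.79 CPM in HFKO cells, and the log2 fold change was 0.07 ± 0.05 (edgeR adjusted p = 0.525). Ldha (chr7:46841475-46855627, plus strand), the lactate dehydrogenase subunit favoured for making lactate, had 3512 and 4273 counts in WT and 3600 and 3999 counts in HFKO libraries, or 64.85 and 68.27 FPKM against 69.28 and 66.84 FPKM. Its groups overlapped as well, with a log2 fold change of 0.04 ± 0.05 and a fold interval of 0.953 to 1.11.

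**Figure D2:**
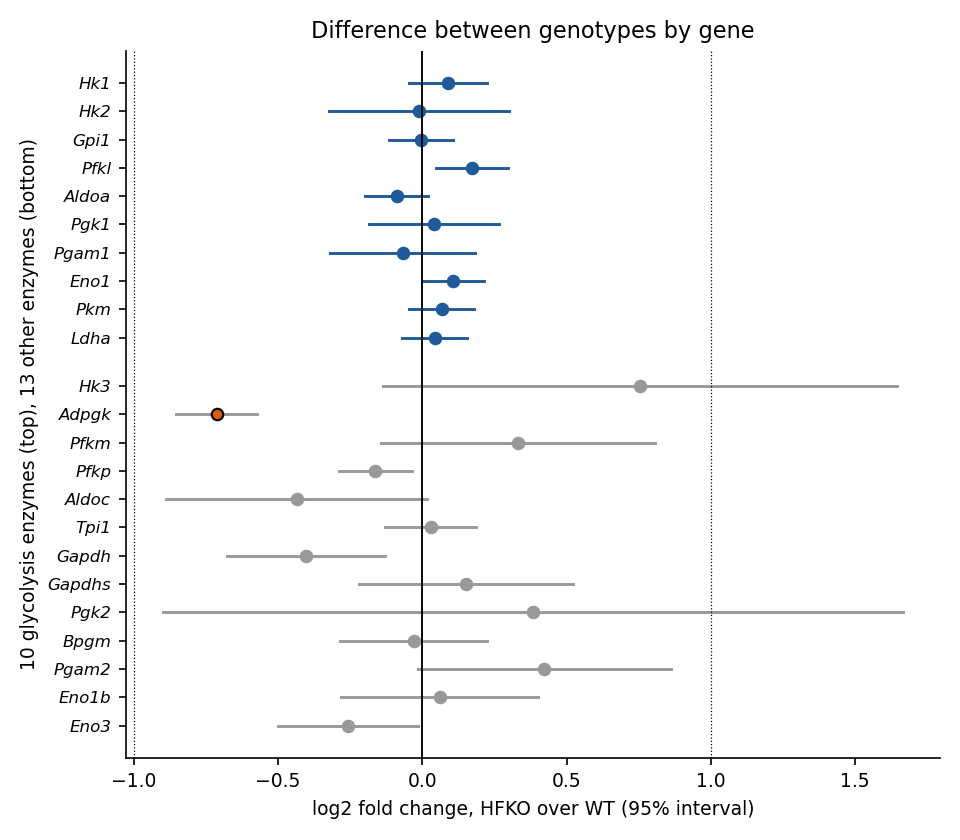
Log2 fold change (HFKO over WT, x axis) with its 95% interval for the 10 glycolysis enzymes (blue, top) and the 13 other glycolytic enzymes tested (grey, bottom), with dotted lines at a 2-fold difference. The interval of each of the 10 lies well inside the dotted lines, and the 1 gene past the test (orange) is Adpgk at -0.71.

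A count of Pkm reads does not show which of its proteins is made. The gene holds a pair of mutually exclusive exons, of which one is spliced into PKM1, the form of muscle and brain, and the other into PKM2, the form of most proliferating cells, and hnRNP proteins are known to take part in that choice. Their sequences are given because Pkm was the member with rows in the splicing table. Both exons have 167 bases, a length that is not a multiple of 3, and were read from GENCODE transcripts of GRCm38 in which they stand as exon 9. They are identical at 103 of 167 positions (61.7%), and the 64 positions at which they differ are in capitals.
Pkm exon at chr9:59675029-59675195, plus strand (PKM1): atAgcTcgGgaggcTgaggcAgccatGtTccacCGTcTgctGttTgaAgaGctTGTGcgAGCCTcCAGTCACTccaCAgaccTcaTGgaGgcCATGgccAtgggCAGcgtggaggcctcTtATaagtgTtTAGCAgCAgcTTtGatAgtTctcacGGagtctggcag
Pkm exon at chr9:59675568-59675734, plus strand (PKM2): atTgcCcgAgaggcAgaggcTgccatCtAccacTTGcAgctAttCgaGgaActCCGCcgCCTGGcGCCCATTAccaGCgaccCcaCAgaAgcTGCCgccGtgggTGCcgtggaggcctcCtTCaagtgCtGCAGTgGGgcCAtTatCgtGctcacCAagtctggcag
The splicing table lists events the authors called different between the genotypes, and 8.22% of the genes tested for counts had a row in it. Of the 10 enzymes 1 had a row and 9 had none. Pkm had 2 rows, both of skipped exons, and the table gives no coordinates, so whether they concern the 2 exons above cannot be read from it. The authors' inclusion differences and significance values were not used, and the deposited counts hold no count per exon, so PKM1 and PKM2 were not measured here. Of 5 genes encoding known regulators of this exon choice (Hnrnpa1, Hnrnpa2b1, Ptbp1, Srsf3 and Rbm4), 0 passed the edgeR test, with log2 fold changes from -0.16 to 0.16. Hnrnpa1 had the lowest edgeR adjusted p of these 5, 0.0718, with a log2 fold change of 0.16 ± 0.05. Only Hnrnpa2b1 of these 5 had rows in the splicing table, 2 of skipped exons.

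The levels of the 10 genes spanned 40.4-fold by mean FPKM. Aldoa led with 107 FPKM over the 4 libraries, followed by Pkm (83.4 FPKM), Gpi1 (68.6 FPKM), Ldha (67.3 FPKM), Eno1 (39.0 FPKM), Pfkl (15.6 FPKM), Pgk1 (10.7 FPKM), Hk1 (10.04 FPKM), Pgam1 (8.49 FPKM) and Hk2 (2.64 FPKM). The ranges of the 4 libraries overlapped between Gpi1 and Ldha and between Pgk1 and Hk1, and did not overlap between the other neighbours in this order. The authors' exonic gene size joins all annotated exons and was 1.08 times (Hk2) to 2.65 times (Eno1) as long as the transcript with the longest coding sequence. When counts were divided by the length of that transcript instead, a choice made after the data were seen, Hk1 (22.2) moved above Pgk1 (13.2, in the same unit as FPKM) and the other 8 kept their places.

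Several of these mRNAs have near-identical copies elsewhere in the genome, mostly processed pseudogenes, and reads that fit in more than 1 place are commonly left out of gene counts. Hk1, Hk2 and Pfkl had no other gene with at least 90% identity over at least 200 bases in the GENCODE transcripts. For Pgk1, 67% of the 100-base windows of its transcript occurred exactly in another gene, with Pgk1-rs7 identical over 1255 aligned bases. The share was 59% for Eno1, whose nearest copy Eno1b was 99.5% identical over 1736 bases, and 39.7% for Pgam1, whose copy Pgam1-ps2 was identical over 765 bases. It was 6.82% for Pkm, 4.92% for Gpi1, 1.28% for Ldha and 0% for Aldoa. The copies themselves held few counts, at most 5.84% of those of the parent gene (Eno1) among the 10. The levels of Pgk1, Pgam1 and Eno1 are therefore uncertain, as reads from a gene and its copy could be split or dropped. The reads as sequenced were longer than these windows, and how the counting treated reads with several matches is not given in the sources used here. Gapdh, which follows aldolase in the pathway and is usually among the most abundant mRNAs, had 161 such copies and 85.8% of its windows in them. It held 3.56 FPKM and 1019 counts over the 4 libraries, while its copies held 1217 counts.

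**Figure D3:**
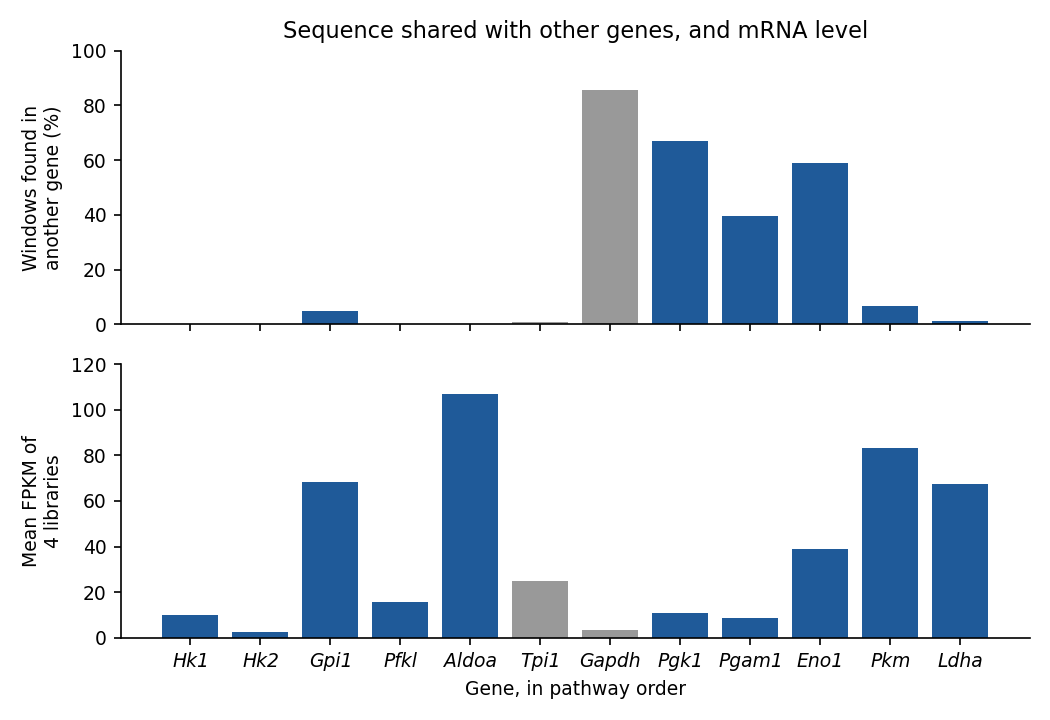
For 12 glycolytic genes in pathway order, the upper bars give the share of 100-base windows of the transcript found exactly in another gene (%) and the lower bars the mean FPKM of the 4 libraries, with the 10 enzymes in blue and Tpi1 and Gapdh in grey. Gapdh has 85.8% of its windows in other genes and 3.56 FPKM, and Pgk1, Eno1 and Pgam1 have the largest shares of the 10.

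Most steps were dominated by the isoenzyme studied here. Aldoa made up 98.2% to 98.7% of the aldolase FPKM, Ldha 99.5% to 99.8% of that of lactate dehydrogenase and Pkm all of that of pyruvate kinase, Pklr being at 0. Hk1 made up 79.7% and 74.3% of the hexokinase FPKM in WT and 77.6% and 76.6% in HFKO libraries, and Hk2 most of the rest. Hk3, a hexokinase known from myeloid cells, took 2.17% and 2.01% in WT and 2.68% and 3.83% in HFKO libraries, on 16 to 34 counts, and the part in it of the S100a8 and S100a9 signal given above was not tested. Pgam1 and the muscle form Pgam2 shared their step, with 52.1% and 38.7% for Pgam1 in WT and 39.7% and 33.6% in HFKO libraries, a share that rests on the uncertain counts of Pgam1. Enolase FPKM was 61.7% and 61.3% Eno1 in WT and 64.4% and 67.8% in HFKO libraries, while the muscle form Eno3 took 29.9% and 30.5% against 27.7% and 22.7%. Eno1b, the near copy of Eno1, took 8.17% and 7.67% against 7.53% and 8.95%. The enolase shares also rest on uncertain counts, those of Eno1. With the length of the longest coding transcript these shares were 79.6% and 79.3% against 81.4% and 83.6% for Eno1 and 16.1% and 16.5% against 14.7% and 11.8% for Eno3. By that length the share of Hk2 was 9.87% to 13.3% and that of Hk3 1.18% to 2.25%, in place of 18.1% to 23.7% and 2.01% to 3.83% by FPKM.

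Phosphofructokinase was the step at which the shares of all 3 isoenzymes were apart between the genotypes. The shares of a step sum to the whole, so these are not separate results. Some isoenzymes of other steps were also apart, namely Hk3, Aldoa, Aldoc, Eno1, Eno2, Eno3, Ldha and Ldhb. In CPM, the groups did not overlap for 50.1% of all genes tested. Pfkl made up 58.7% and 60.3% of the FPKM in WT and 63.4% and 64.2% in HFKO libraries, and the platelet-type subunit Pfkp 35.8% and 34.7% against 30.2% and 29.7%. The muscle-type Pfkm took 5.56% and 4.97% against 6.44% and 6.16%. The ratio of Pfkl to Pfkp FPKM was 1.64 and 1.74 in WT and 2.10 and 2.16 in HFKO libraries. With 2 libraries a group, the exact permutation test cannot give a two-sided p below 0.333, and no test of this ratio was made. Pfkp had a log2 fold change of -0.16 ± 0.06 with an edgeR adjusted p of 0.122, and like Pfkl it was not called. With the length of the longest coding transcript the ratio was 0.908 and 0.961 in WT and 1.16 and 1.20 in HFKO libraries, again apart. Which of the genes was higher in WT libraries therefore depended on the length used. In HFKO libraries Pfkl was higher by either length.

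**Figure D4:**
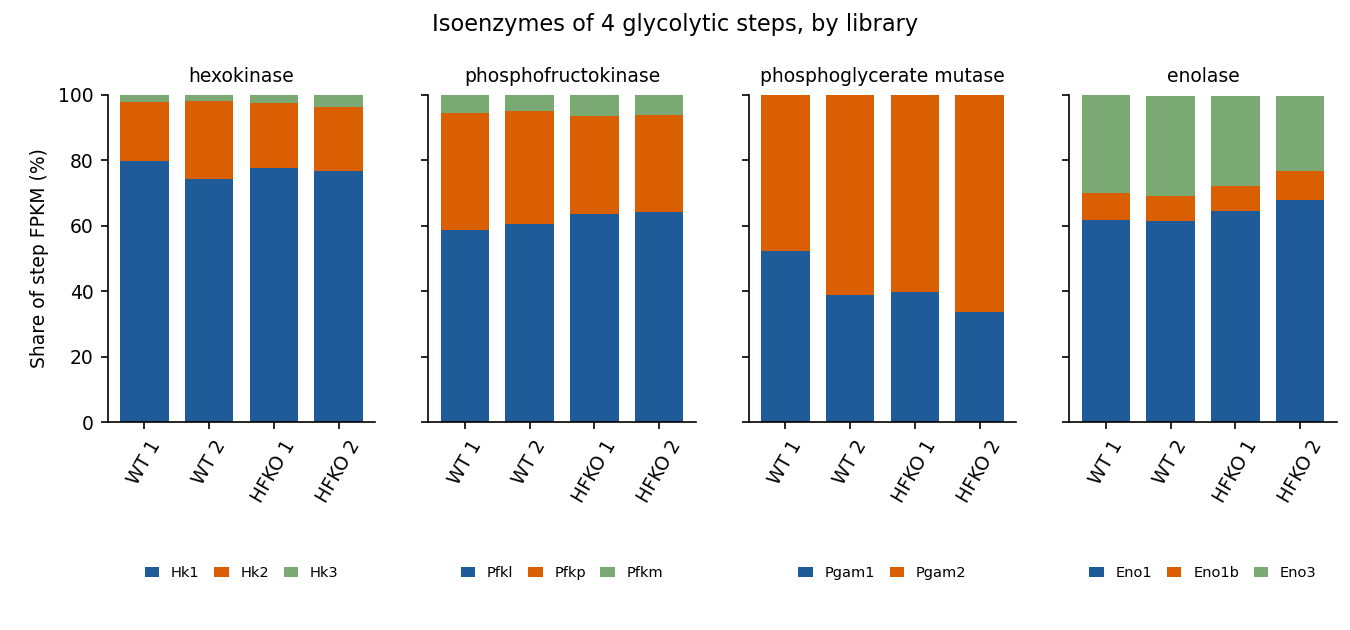
Share of the summed FPKM of a step (y axis, %) taken by each isoenzyme in each of the 4 libraries, for hexokinase, phosphofructokinase, phosphoglycerate mutase and enolase (genes under 1% in every library are not drawn). The Pfkl share is 58.7% and 60.3% in WT and 63.4% and 64.2% in HFKO libraries.

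Among the other enzymes of glycolysis 1 passed the test. Of 21 genes, 13 were left by the filter on low counts, of which 0 were higher and 1 was lower in HFKO cells. That gene was Adpgk, which encodes an ADP-dependent kinase of the endoplasmic reticulum that phosphorylates glucose as the hexokinases do. It had 1909 and 2218 counts in WT and 1171 and 1213 counts in HFKO libraries, or 117 ± 0.0972 CPM against 71.2 ± 4.94 CPM. The libraries of both groups were well apart, and Adpgk fell by 0.71 ± 0.07 on the log2 scale, a fold of 0.610 with an interval of 0.553 to 0.673 and an edgeR adjusted p of 4.6e-05. It was not called by limma on FPKM, where at most 45 genes passed in all (adjusted p from 0.0603 to 0.161). Adpgk also had 1 row in the splicing table, of a retained intron, and Pfkp had 1 row of a skipped exon. Gapdh had 285 and 307 counts in WT and 188 and 239 counts in HFKO libraries, with a log2 fold change of -0.40 ± 0.13 and an edgeR adjusted p of 0.0802, and the part of its copies in these counts was not tested. Tpi1, the triose phosphate isomerase, had 1057 and 1366 counts in WT and 1095 and 1245 counts in HFKO libraries, with a log2 fold change of 0.03 ± 0.07. The other 9 that did not pass had log2 fold changes of 0.75 (Hk3), 0.42 (Pgam2), 0.38 (Pgk2), 0.33 (Pfkm), 0.15 (Gapdhs), 0.06 (Eno1b), -0.03 (Bpgm), -0.26 (Eno3) and -0.44 (Aldoc).

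The genes that feed and control the pathway gave 0 or 1 call per list, where 6.97% of all genes tested passed. Among 10 tested transporters of glucose and lactate, 1 was higher and 0 were lower in HFKO cells. Slc2a6, a hexose transporter of lysosomes, had 234 and 346 counts in WT and 436 and 386 counts in HFKO libraries, with a log2 fold change of 0.59 ± 0.14 and an edgeR adjusted p of 0.0252. Without WT replicate 1 and without HFKO replicate 1 it was not called (edgeR adjusted p of 0.0962 and 0.170). The main glucose transporters of lymphocytes did not pass, with Slc2a1 at a log2 fold change of -0.19 ± 0.07 and Slc2a3 at 0.15 ± 0.08. No gene passed among 13 tested regulators of flux (such as Pfkfb3 and the pyruvate dehydrogenase kinases), 7 genes of pyruvate entry into mitochondria or 8 genes of the pentose phosphate pathway. For these lists the counts at an unadjusted edgeR p under 0.05 were 2, 0 and 1, beside 20.3% of all genes tested. Of 11 tested transcriptional regulators of glycolysis, 1 was higher and 0 were lower.

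That regulator was Myc, which encodes a transcription factor that drives the expression of glycolytic genes in activated lymphocytes. Myc had 1500 and 1992 counts in WT and 1966 and 2140 counts in HFKO libraries, or 98.2 ± 9.19 CPM against 122 ± 4.21 CPM. It rose by 0.32 ± 0.07 on the log2 scale with an edgeR adjusted p of 0.0146, and was not called without WT replicate 1 or without HFKO replicate 1 (edgeR adjusted p of 0.0956 and 0.0686). Hif1a, which encodes the other main activator of these enzymes, was among the 10 regulators that did not pass.

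**Figure D5:**
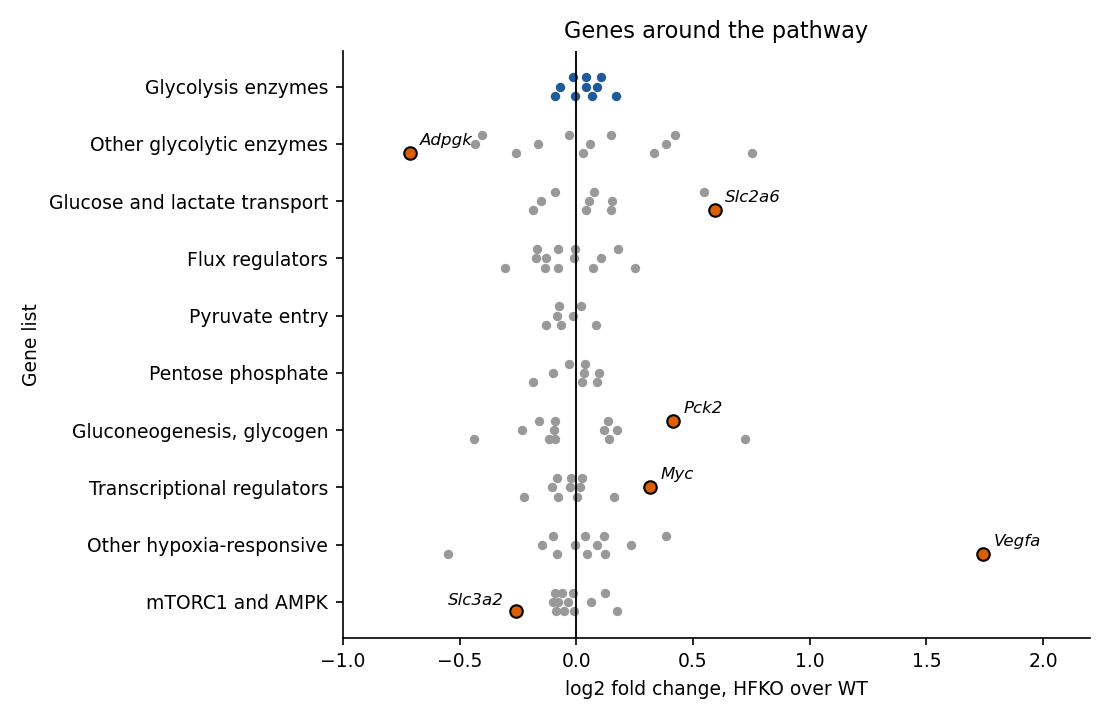
Log2 fold change (HFKO over WT, x axis) of every tested gene of 10 lists (y axis), with 1 point per gene, blue for the 10 glycolysis enzymes and orange with a name for genes past the edgeR test. The lists hold 6 such genes, Adpgk and Slc3a2 to the left of 0 and Slc2a6, Pck2, Myc and Vegfa to the right, and none among the 10 enzymes.

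In 13 tested genes of gluconeogenesis and glycogen metabolism, 1 was higher and 0 were lower. Pck2, the mitochondrial phosphoenolpyruvate carboxykinase, had 2266 and 2462 counts in WT and 2740 and 3268 counts in HFKO libraries, and rose by 0.42 ± 0.06 on the log2 scale (edgeR adjusted p = 0.000843). Of 13 other tested genes that respond to hypoxia, as many glycolysis enzymes do, 1 was higher and 0 were lower. This was Vegfa, the vascular growth factor, which also had 1 row of a skipped exon in the splicing table. It had 15 and 11 counts in WT and 36 and 48 counts in HFKO libraries, with a log2 fold change of 1.74 ± 0.41 and an edgeR adjusted p of 0.0203. It was not called without WT replicate 2 or without HFKO replicate 2 (edgeR adjusted p of 0.101 and 0.0884). Of 13 tested genes of mTORC1 and AMPK, the growth and energy sensors that control glycolysis, 0 were higher and 1 was lower. This was Slc3a2, a subunit of an amino acid transporter, with 1894 and 2017 counts in WT and 1506 and 1604 counts in HFKO libraries and a log2 fold change of -0.26 ± 0.07 (edgeR adjusted p = 0.0331). Without WT replicate 1 and without HFKO replicate 2 it was not called (edgeR adjusted p of 0.192 and 0.128). Each list with a call had 1 called gene of the 10 to 13 tested, beside 6.97% of all genes, and the lists had been put together with earlier results of these data known. At an unadjusted edgeR p under 0.05 they held 1 gene (mTORC1 and AMPK) to 4 genes (other glycolytic enzymes), beside 20.3% of all genes tested.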

How the data were processed

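RNA-Seq of poly(A) RNA covered 2 WT and 2 HFKO samples of FOB cells, grouped by their labels. The authors aligned paired reads to GRCm38 with HISAT2 2.0.1 and counted them per gene with HTSeq 0.6.1, and deposited the counts without normalization. The strand setting and annotation release are not given in the sources used here. The deposited FPKM are the authors' counts divided by exonic gene size and library total, and 221604 of 221604 values were recomputed within 0.0051. The deposited splicing table holds the authors' own FDR and inclusion differences, which were not used.

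Counts were compared with edgeR 4.0.16 (R 4.3.3, TMM, filterByExpr, quasi-likelihood F test, Benjamini-Hochberg adjustment over 14123 genes). Among the 9875 genes averaging 100 counts or more, log2 fold changes had a median SE of 0.085. Other settings used DESeq2 (1.42.0 here; the study's methods also name this tool) and limma 3.58.1. Copies were found with blastn 2.17.0 in GENCODE transcripts of the same build. The genes and lists were chosen with earlier results of these data known. Every one of the 10 enzymes, Hnrnpf, each tested enzyme of the pathway and each listed gene past the test were named, while Slc2a1, Slc2a3, Hif1a, Pfkfb3 and the markers named were singled out after their values were seen. CPM are counts scaled by library total and TMM factor. Some genes are not reported here.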

Additional observations from a re-analysis of the deposited data

How the results depend on the processing

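Each of the 10 enzymes was refitted under 13 other settings (other normalizations, filters and tools, the replicate block, and each library left out). At an adjusted p of at most 0.05, 0 of 10 passed under each setting that kept all 4 libraries. Thresholds of 0.01 and 0.1 were applied to the main fit alone, where 0 of 10 passed and Pfkl had an edgeR adjusted p of 0.101. Of the 130 log2 fold changes, 125 kept their sign, from -0.21 to 0.23. The lowest adjusted p was 0.0859 by edgeR (Pfkl, with at least 10 counts in every library), which is under 0.1. The sign turned for 3 genes near 0 when a library was left out. Over those 4 fits Hk2 ran from -0.21 to 0.23, Gpi1 from -0.038 to 0.037 and Pgk1 from -0.048 to 0.14. Among the other glycolytic enzymes, the count lower in HFKO cells was 0 in each of the 3 limma settings, 2 at an adjusted p of at most 0.1 (Adpgk and Gapdh), and 1 to 2 with a library left out (Eno3 was added without HFKO replicate 1). The count higher was 0 to 1, the 1 being Pgam2 without WT replicate 2. The cause of these changes was not tested. The limma settings passed 45, 41 and 1 genes in all, against 985. In them Slc2a6, Pck2, Myc and Slc3a2 were also not called. Vegfa was tested in the limma setting without a filter alone and not called there. DESeq2 did not call Vegfa (adjusted p = 0.0847) or Slc3a2 (0.0783).

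The replicate numbers of WT and HFKO libraries do not pair them by any label, and the deviations of same-numbered libraries from their group means had a Pearson's r of -0.096 over 9875 genes. With the replicate block, 612 genes passed, 0 of the 10 enzymes and 1 other glycolytic enzyme, while Slc2a6 (adjusted p = 0.0583) and Slc3a2 (0.0552) were no longer called. With 2 libraries a group, differences smaller than the intervals given could not be resolved.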

Other observations

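Among the isoenzymes too low to be tested, Hkdc1, a hexokinase-like enzyme, and Pklr, the liver and red cell pyruvate kinase, had 0 counts in all 4 libraries, where 3 counts would be the limit that a count of 0 allows. Ldhc, the testis lactate dehydrogenase, had 1 count in 1 library. Eno2, the neuronal enolase, had 5 and 6 counts in WT and 6 and 13 counts in HFKO libraries. Ldhb, the heart-type lactate dehydrogenase subunit, had 3 and 6 counts in WT and 9 and 10 counts in HFKO libraries, beside 3512 to 4273 counts for Ldha. Eno4 had 3 to 11 counts. Other isoenzymes known from muscle, Pgam2 and Eno3, were well above these levels.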
